A study of Oryza sativa with 24 samples.

Results

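The 40 sets of spots described here were those whose signal lay lowest below the untreated level in rice (Oryza sativa) seedlings under osmotic stress, out of 224 sets on a small RNA array. A set is 4 neighbouring spots that carry the same probe code. Each set was scored as the mean of its levels at 5 treated times minus its level at 0 h, on the log2 intensity scale, and the 40 lowest scores were taken. Those scores ran from -2.36 to -0.25, with a median of -0.34, against a median of -0.04 over all 224 sets, of which 124 scored below 0. Because the comparison with 0 h chose the sets, all levels against 0 h are given as a description, with no test.

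The seedlings grew in Yoshida's solution in days of 13 h light (26 °C) and nights of 11 h (22 °C). The labels give 15% PEG6000, a polymer that makes water harder for roots to take up, for 0, 0.5, 2, 6, 24 and 48 h, and 0 h stood for the untreated state. Seedlings kept without PEG for the same hours were not analysed here, so hours of treatment and hours of growth cannot be told apart. If the hours are exact, 24 and 48 h share the clock time of 0 h, while 0.5, 2 and 6 h do not. Hours of treatment and time of day therefore cannot be told apart either. Each time had 2 small RNA libraries, which the series calls biological replications, and each library was amplified with a Cy5 primer and hybridized to 2 arrays in 1 colour. Separate plants or pools are not named in the labels, so the p-values below reflect how far libraries differ, and that difference may be partly technical.

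Plant microRNAs are cut from hairpin precursors by a Dicer-like enzyme, are loaded into an Argonaute protein and guide it to messenger RNAs with a matching site, which are cleaved or translated less. Many of their targets are transcription factors, nutrient transporters and stress enzymes, and in plants short of water the levels of several microRNA families shift. The files give probe codes such as R224 and N8 without names or sequences. Members are therefore called by code, and no family, target or sequence is given for them.

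The 12 libraries on 24 arrays had median spot intensities from 152 to 566, and the 5th percentile ran from 11.3 to 194 between arrays. Local background was recorded above 0 for 83 spots in all, so a signal limit for dim sets cannot be set from these files. The arrays' scan records ran in the same order as the treatment times, so time and order of recording cannot be told apart. The labels name seedlings and no organ, and fewer cells holding a small RNA and less of it per cell cannot be told apart. The number of libraries, 2 a time, limits the precision of every value below.

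Most of the 40 sets lay only a little below 0 h, and R224 stood far from the rest. R224 scored -2.36, R290 -0.99, R219 -0.69, R111 -0.61, R204 -0.53 and R64 -0.50, and these 6 were the members below -0.5. Another 23 members scored between -0.5 and -0.3, and 11 scored above -0.3. At the edge of the choice, R227 scored -0.2499 and R238 -0.2462 inside it, while R58 scored -0.2461 and R283 -0.2445 outside it. The edge therefore falls within a run of nearly equal scores.

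**Figure D1:**
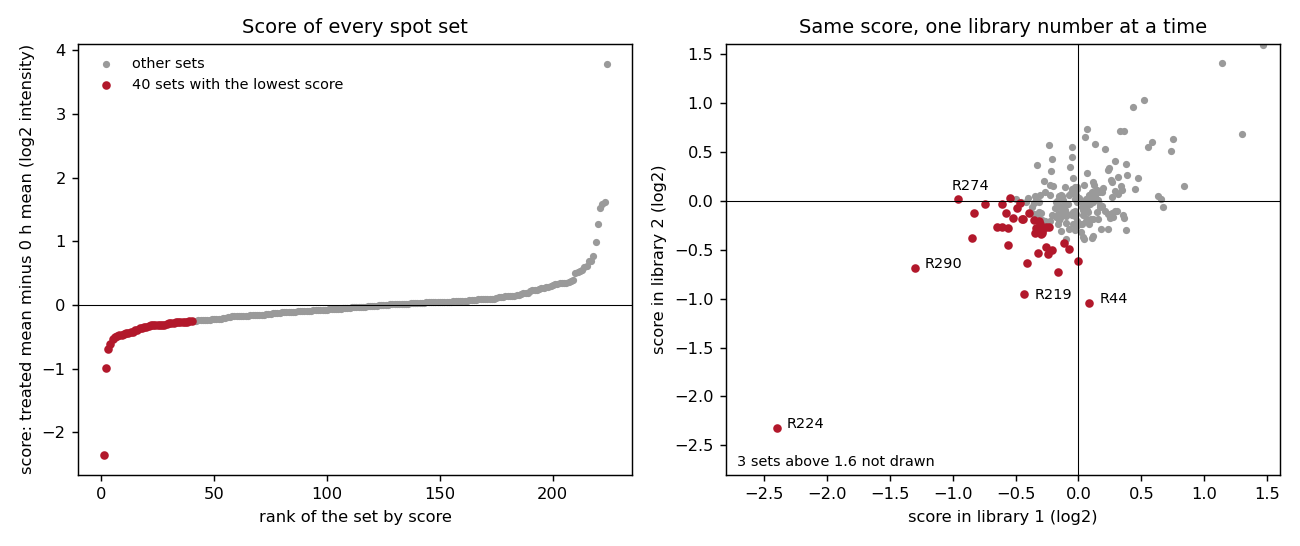
Left, the score of each of the 224 sets (log2 intensity, treated mean minus 0 h mean) against its rank, with the 40 lowest in red. Right, the same score computed from library 1 alone (x axis) and library 2 alone (y axis), with 3 sets above 1.6 not drawn. R224 lies apart at -2.40 and -2.32, and R44 and R274 lie on opposite sides of 0 in the libraries.

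R224 had the greatest depth of the 40. Its log2 levels, library 1 before library 2, were 11.34 and 12.0005 at 0 h, 8.89 and 9.75 at 0.5 h, 9.18 and 10.27 at 2 h, 9.22 and 10.06 at 6 h, 8.65 and 9.17 at 24 h, and 8.77 and 9.16 at 48 h. All 10 treated libraries lay below both 0 h libraries, and the gap was open at the earliest time sampled. The mean level differed from 0 h by -2.35 at 0.5 h, -1.94 at 2 h, -2.03 at 6 h, -2.76 at 24 h and -2.71 at 48 h. At 24 h, its lowest point, R224 was 6.77-fold below 0 h on the log2(intensity + 50) scale, and by 48 h it had regained 1.95% of that depth. The scanner's own values gave the same picture: a mean of 3576 intensity units over the 4 arrays at 0 h (2037 to 6093 by array) against 447 at 24 h (314 to 587). Library 2 stood above library 1 at all 6 times, by 0.38 to 1.09, so the order of the libraries held while the size of the gap did not.

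R290 and R204 were the brightest members, and only these 2 of the 40 had spots at 65535, the scanner's top value, against 11 of all 224 sets. For R290 all 16 spots read 65535 at 0 h, so its untreated level is a lower bound. It had 1 such spot at 0.5 h, 3 at 6 h and none at 2, 24 or 48 h. Its log2 levels in libraries 1 and 2 were 15.99 and 15.97 at 0 h, 14.92 and 15.64 at 0.5 h, 14.56 and 15.37 at 2 h, 15.18 and 15.76 at 6 h, 14.57 and 15.16 at 24 h, and 14.20 and 14.51 at 48 h. Every treated library was below both 0 h libraries, with a partial return at 6 h and the lowest level at 48 h. Its raw mean went from 65535 at 0 h to 27238 at 48 h, at least 2.41-fold lower. The normalized means differed by -1.62, a value that also carries the scaling between arrays, and the true score and depth of R290 are not measured.

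R204 read 65535 in 2 of its 16 spots at 0 h and in none later. Its log2 levels in libraries 1 and 2 were 15.73 and 15.48 at 0 h, 15.19 and 14.89 at 0.5 h, 15.70 and 15.60 at 2 h, 15.52 and 15.18 at 6 h, 15.06 and 14.41 at 24 h, and 15.14 and 14.11 at 48 h. The set dipped at 0.5 h, was back among the 0 h libraries at 2 h and was low again in every library at 24 and 48 h. The raw mean of R204 was 52265 at 0 h, 33644 at 0.5 h, 42699 at 2 h, 50788 at 6 h, 26075 at 24 h and 30282 at 48 h. In raw values the return was therefore fuller at 6 h than at 2 h, and the lowest mean was at 24 h rather than 48 h. The fold below 0 h at 48 h was 1.73 in raw and 1.98 in normalized values, with the 0 h level a lower bound in the spots at 65535.

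R219 moved up and down with the gap between libraries as wide as the changes. Its levels in libraries 1 and 2 were 9.36 and 10.78 at 0 h, 8.53 and 9.82 at 0.5 h, 9.63 and 10.41 at 2 h, 8.89 and 9.38 at 6 h, 8.62 and 9.60 at 24 h, and 8.99 and 9.94 at 48 h. Library 2 was the higher at every time, and within each library the 0.5 h level was low and the 2 h level high. The 0 h libraries differed by 1.42, more than the score of -0.69, and without library 2 of 0 h the score was 0.02.

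R111 was low at 2 h and again at 48 h. Its levels in libraries 1 and 2 were 11.59 and 11.64 at 0 h, 11.15 and 11.56 at 0.5 h, 10.66 and 10.72 at 2 h, 10.91 and 11.35 at 6 h, 10.80 and 11.83 at 24 h, and 10.19 and 10.86 at 48 h. The libraries were close together at 0 and 2 h and 1.03 apart at 24 h, where library 2 was above the 0 h level. The depth at 48 h was -1.09, or 2.12-fold.

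R64 reproduced closely between libraries. Its levels were 12.26 and 12.16 at 0 h, 11.55 and 11.60 at 0.5 h, 11.54 and 11.36 at 2 h, 12.01 and 12.12 at 6 h, 11.45 and 11.74 at 24 h, and 11.96 and 11.70 at 48 h. All 10 treated libraries were below both of 0 h, with low levels at 0.5, 2 and 24 h and a mean only -0.14 from 0 h at 6 h. The deepest mean difference was -0.76, at 2 h.

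R253 and R44 owed much of their score to 1 of the 0 h libraries. R253 read 12.41 and 11.37 at 0 h, 11.46 and 11.08 at 0.5 h, 11.38 and 10.91 at 2 h, 11.76 and 11.35 at 6 h, 11.88 and 11.19 at 24 h, and 11.42 and 11.71 at 48 h. Library 1 of 0 h was above every other value of R253, library 2 of 0 h sat among the treated values, and without that library 1 the score was 0.04. R44 read 12.68 and 14.06 at 0 h, 12.51 and 13.36 at 0.5 h, 13.20 and 13.18 at 2 h, 12.83 and 13.02 at 6 h, 12.57 and 12.58 at 24 h, and 12.72 and 12.96 at 48 h. Its score was 0.09 in library 1 and -1.04 in library 2, so the low score came from library 2 alone.

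**Figure D2:**
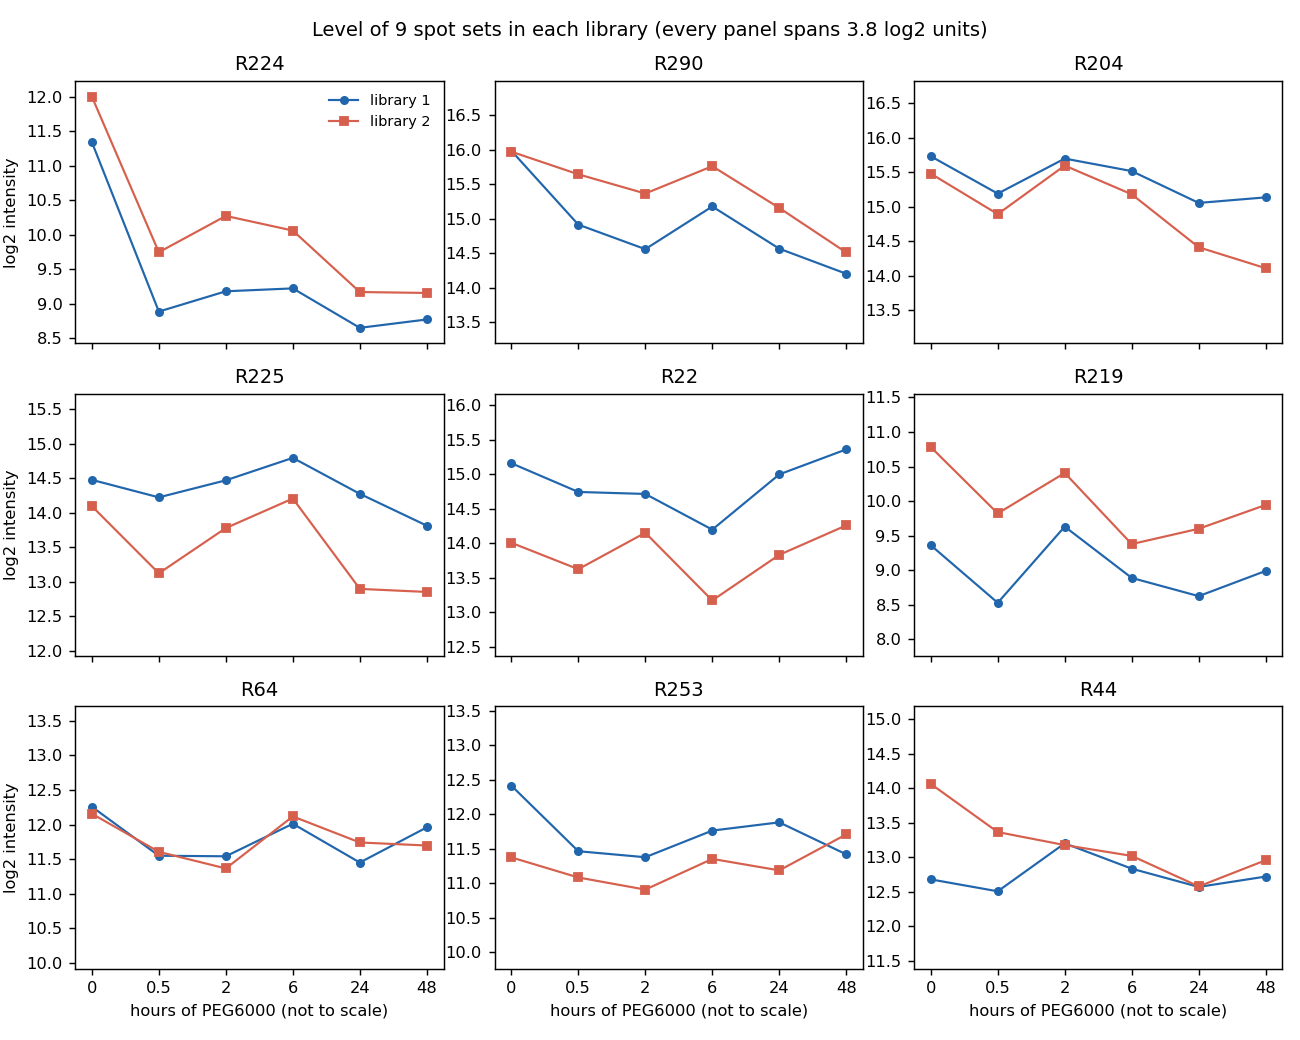
Log2 intensity of 9 members (y axis, every panel spanning 3.8 log2 units) at 0, 0.5, 2, 6, 24 and 48 h of PEG6000 (x axis, not to scale), with 1 line per library. R224 drops in both libraries by 0.5 h and stays low, R64 has its libraries close together, and R44 has libraries 1.38 apart at 0 h and 0.01 apart at 24 h.

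Against 0 h, the members' mean levels were mostly low from 0.5 h on and changed little afterwards. Every treated time shares the 0 h mean that chose the sets, so a 0 h value high by chance would give the same course. The median SD of the 0 h libraries was 0.27 in members and 0.14 in all sets, against 0.15 and 0.16 at treated times. When the levels fell was therefore not tested, and the counts below are a description. The mean was below 0 h for 37 of the 40 members at 0.5 h and for 39 at each of 2, 6, 24 and 48 h. The median member differed from 0 h by -0.28, -0.35, -0.35, -0.36 and -0.38 at these times, against -0.04, 0.00, -0.04, -0.05 and -0.07 over all sets. The members' mean first passed 50% of the depth (the lowest treated mean minus 0 h) at 0.5 h in 19 members, at 2 h in 17 and at 6 h in 4, namely R270, R5, R26 and R22. The means at or above 0 h were those of R33, R35 and R5 at 0.5 h, R204 at 2 h, R225 at 6 h, R35 at 24 h and R22 at 48 h.

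Counted by library, both treated libraries lay below both 0 h libraries in 14 members at 0.5 h, beside 18.8% of all sets. The count was 23 at 2 h beside 25.4%, 23 at 6 h beside 20.1%, 23 at 24 h beside 22.8%, and 27 at 48 h beside 28.1%. The rule used this contrast, so nothing is read from these counts. In 9 members, R224, R290, R64, R298, R299, R105, R251, R267 and R291, all 10 treated libraries lay below both 0 h libraries, beside 5.36% of all sets. Outside the 40, the sets R258, R215 and R85 also did. In raw means, which are not scaled between arrays, only R224, R290 and R291 of the 9 members were below 0 h at every treated time. R64, R298, R299, R105, R251 and R267 rose above it at some time, for instance R251 from 221 at 0 h to 311 at 48 h. R64 read 4912 at 0 h and 4967 at 6 h. With no normalization the median score of all sets was 0.21.

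By the time of the lowest mean, 12 members were lowest at 48 h: R290, R111, R204, R225, R292, R32, R103, R33, R105, R286, R222 and N8, with depths from -1.62 to -0.36. At 2 h, 11 were lowest, namely R64, R253, R298, R67, R208, R254, R96, R41, R288, R255 and R227, with depths from -0.76 to -0.37. At 6 h the lowest 9 were R274, R270, R262, R251, R26, R22, R35, R267 and R238, with depths from -0.90 to -0.36. The 7 lowest at 24 h were R224, R219, R44, R272, R263, R5 and R291, with depths from -2.76 to -0.34, and R299 alone was lowest at 0.5 h, with -0.42. The median depth was between -0.66 and -0.51 in the groups of 2, 6, 24 and 48 h. The time of the lowest mean is itself picked from 5 noisy means, and the order of neighbouring times in 1 set was not tested.

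**Figure D3:**
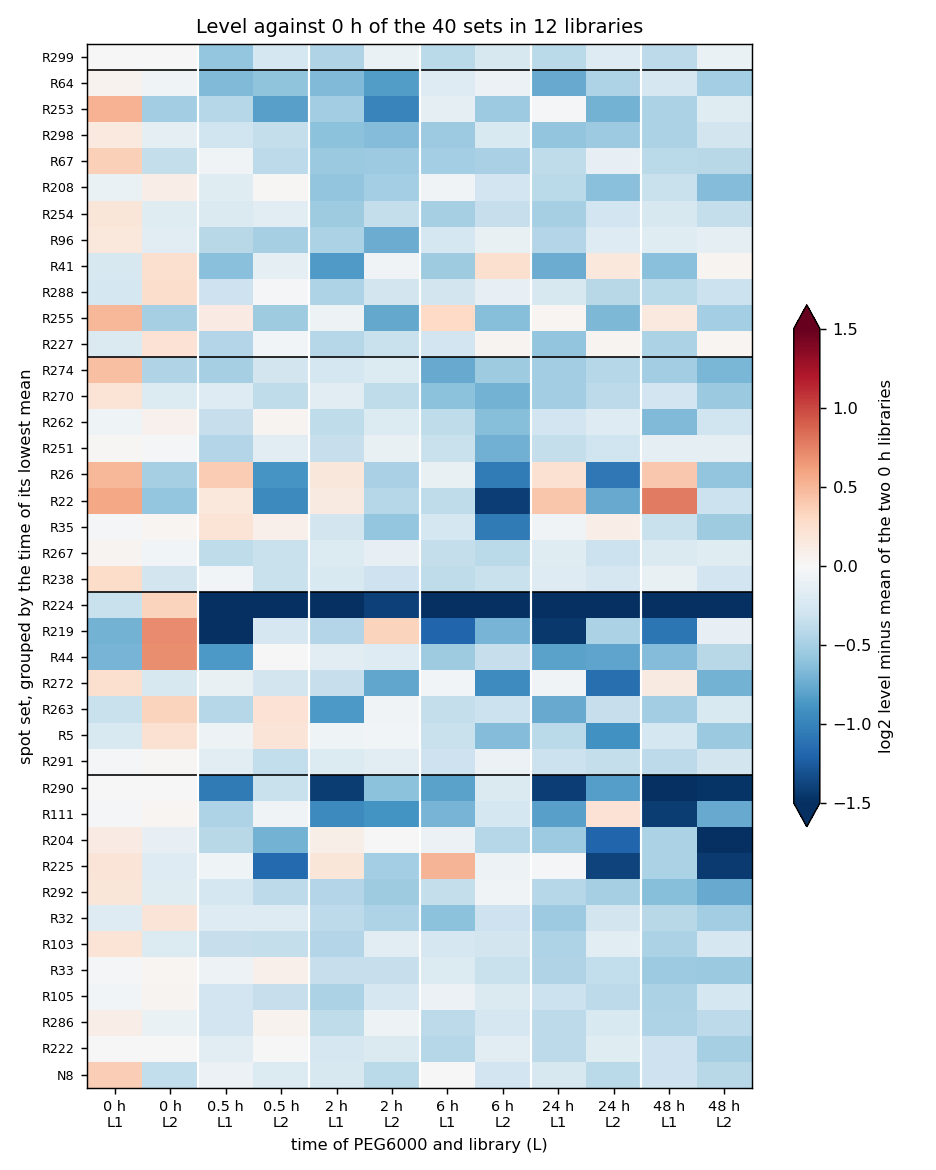
Log2 level of the 40 members (rows, grouped by the time of their lowest mean) in each of the 12 libraries (columns, time and library) minus the mean of both 0 h libraries, with colours ending at -1.5 and 1.5. R224 is dark blue in all 10 treated libraries, and R26, R22 and R255 have library 1 above library 2 at every time. For R255 this order comes from averaging unlike arrays. At 0 h, libraries 1 and 2 of R255 read 10.32 and 8.01 on their first arrays but 7.04 and 7.37 on their second.

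Recovery was measured as the mean at 48 h minus the lowest treated mean, as a percent of the depth, and had a median of 32.7%. Because the lowest of 5 noisy means is subtracted, the difference cannot be below 0, and it is above 0 by construction unless 48 h is the lowest. No member passed the limma test of 48 h minus 24 h described below, with or without the library number in the fit. That test covers only the second day, so it does not test the return of members lowest at 0.5, 2 or 6 h. Recovery was 0% in the 12 members lowest at 48 h, above 0 and up to 50% in 21, and above 50% in 7. The last were R253, R272, R96, R251, R26, R22 and R255. R22 alone passed 100%.

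R22 read 15.16 and 14.005 at 0 h, 14.74 and 13.62 at 0.5 h, 14.71 and 14.15 at 2 h, 14.19 and 13.17 at 6 h, 14.99 and 13.83 at 24 h, and 15.36 and 14.26 at 48 h. In each library the lowest value came at 6 h and the highest at 48 h, with library 1 the higher throughout. Its mean was -0.90 from 0 h at 6 h and 0.23 above it at 48 h, a recovery of 125%. Over the 23 processing settings tried, its recovery ran from 63.9% to 348.4%, so whether R22 passed its 0 h level depends on the setting.

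R26 had a recovery of 84.0%, with a range of 0 to 650.1% over the settings, so its recovery is not determined by these data. It read 13.67 and 12.67 at 0 h, 13.55 and 12.29 at 0.5 h, 13.34 and 12.68 at 2 h, 13.07 and 12.12 at 6 h, 13.40 and 12.10 at 24 h, and 13.57 and 12.58 at 48 h. The 2 libraries were about as far apart as in R22, and library 2 was as low at 24 h as at 6 h. R96 recovered 74.5% of a depth of -0.61 reached at 2 h, with a range of 53.0% to 200.3% over the settings. It read 8.70 and 8.38 at 0 h, 8.13 and 8.05 at 0.5 h, 8.06 and 7.79 at 2 h, 8.28 and 8.43 at 6 h, 8.10 and 8.35 at 24 h, and 8.36 and 8.41 at 48 h. Library 2 of R96 was back at or near its 0 h value from 6 h on, and library 1 stayed below its own.

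R225, R292 and R32 were among the members with no recovery in the main setting. Over the 23 settings, recovery ran from 0 to 32.5% in R225, 0 to 20.8% in R292 and 0 to 84.1% in R32. In raw means none of them was lowest at 48 h. The raw mean of R225 was 13380 at 24 h and 14930 at 48 h, and that of R292 was 859 at 2 h and 943 at 48 h. For R32 it was 22730 at 0 h, 14190 at 2 h and 21350 at 48 h. R225 read 14.48 and 14.10 at 0 h, 14.22 and 13.12 at 0.5 h, 14.47 and 13.78 at 2 h, 14.80 and 14.21 at 6 h, 14.28 and 12.90 at 24 h, and 13.81 and 12.85 at 48 h. At 6 h each library was above its own 0 h value, before R225 reached its lowest values, so a single depth describes it poorly. R292 read 10.48 and 10.12 at 0 h, 10.04 and 9.91 at 0.5 h, 9.86 and 9.77 at 2 h, 9.95 and 10.25 at 6 h, 9.87 and 9.80 at 24 h, and 9.67 and 9.54 at 48 h. R32 read 14.23 and 14.61 at 0 h, 14.22 and 14.23 at 0.5 h, 14.02 and 13.96 at 2 h, 13.80 and 14.11 at 6 h, 13.88 and 14.14 at 24 h, and 14.01 and 13.90 at 48 h. R292 was low in both libraries at every treated time but 6 h, and R32 was nearly level from 2 h on, with mean differences from 0 h between -0.41 and -0.47.

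**Figure D4:**
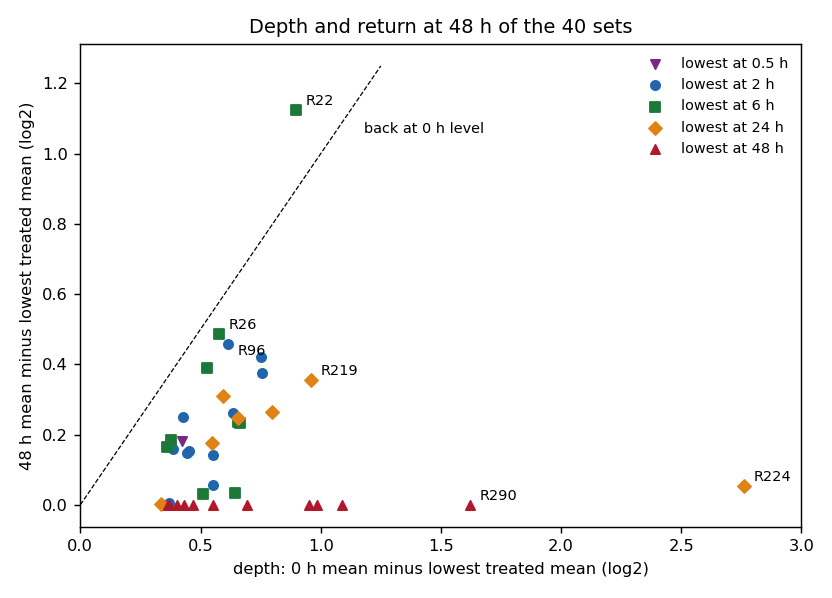
Depth (x axis, 0 h mean minus lowest treated mean, log2) against return at 48 h (y axis, 48 h mean minus lowest treated mean, log2) for the 40 members, marked by the time of the lowest mean. The dashed line marks a full return to the 0 h level, which R22 alone passes, and the members lowest at 48 h lie on 0.

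Differences among the treated times do not use the 0 h levels and were tested with limma over all 224 sets, with Benjamini-Hochberg adjustment. The 0 h libraries still enter the estimate of spread behind each p-value. Their median SD was 0.27 in members and 0.14 in all sets, so the members' p-values are not free of the choice of the sets. The members that moved between early and late hours were few, and they passed the threshold with the library number as a term of the fit and not without it. Without that term, no member passed an adjusted p of 0.05 in any of 4 comparisons. For the mean of 24 and 48 h minus the mean of 0.5, 2 and 6 h, 0.893% of all sets passed and 0 members. There, 6 members and 25 of all 224 sets had an unadjusted limma p under 0.05, and the members' smallest adjusted p was 0.13. For 2 h minus 0.5 h, 0.446% of all sets passed and 0 members, with 3 members and 28 of all sets at an unadjusted p under 0.05. For 48 h minus 24 h, 0% of all sets passed and 0 members, with no member and 6 of all sets at an unadjusted p under 0.05. For any difference among the 5 treated times (F test), 0.893% of all sets passed and 0 members, with 4 members and 32 of all sets at an unadjusted p under 0.05.

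Library differences recurred across times: over all sets, the difference between library 2 and library 1 correlated at 0.49 to 0.77 between the 15 pairs of times. With the library number as a block in the limma fit, 12.1% of all sets passed for late minus early times, and so did 6 of the 40 members (15%). Of these, R224, R290, R204, R225 and R33 fell from the early to the late hours, beside 4.91% of all sets, and R22 rose, beside 7.14%. The median member changed by -0.06 and the median of all sets by -0.02, and 26 of 40 members were lower late, against 120 of 224. In most members, then, the late level did not differ detectably from the early one at this number of libraries. Late and early hours also differ in time of day, which cannot be told apart from hours of treatment here.

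R224 changed by -0.62 ± 0.10 (SE, n = 2 libraries a time) in limma with the block, adjusted p = 0.00492, against 0.546 without it. Within each library number its late values were all below its early ones. R290 changed by -0.63 ± 0.12, limma adjusted p = 0.00778 with the block and 0.385 without it, and spots at 65535 at 0.5 and 6 h make the early level a lower bound. R204 changed by -0.67 ± 0.13, limma adjusted p = 0.00778 and 0.262, with late values below early ones within each library number, and 0.0556 with the block but without library 2 of 24 h.

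R225 changed by -0.64 ± 0.13, limma adjusted p = 0.0111 with the block and 0.609 without it. With the block, the limma adjusted p of R225 was 0.0873 with no normalization, 0.0639 when library 2 was left out at 24 h, 0.0621 when it was left out at 48 h, and 0.0504 when library 1 was left out at 0.5 h. R22 changed by 0.51 ± 0.10, limma adjusted p = 0.00778 with the block and 0.922 without it, with the 6 h value the lowest and the 48 h value the highest in each library.

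R33, singled out after its values were seen, was the member with the smallest adjusted p without the block. It read 14.26 and 14.32 at 0 h, 14.21 and 14.37 at 0.5 h, 13.94 and 13.95 at 2 h, 14.09 and 13.95 at 6 h, 13.84 and 13.92 at 24 h, and 13.74 and 13.73 at 48 h. Its libraries were nearly alike, the 0.5 h level matched 0 h, and all 4 late values were below all 6 early ones. The change was -0.28 ± 0.07, with a limma adjusted p of 0.0269 with the block and 0.13 without it, and with the block it was 0.99 with no normalization, 0.736 with median scaling and 0.428 with cyclic loess.

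Between 0.5 and 2 h, 8.93% of all sets passed with the block and 1 member, R219, which rose by 0.84 ± 0.20, beside 4.46% of all sets that rose and 4.46% that fell. Its limma adjusted p was 0.0296, against 0.651 without the block. This call was lost when any of the 4 libraries of 0.5 and 2 h was left out, with limma adjusted p from 0.0765 to 0.242, and was 0.0579 without either library of 24 h. Between 24 and 48 h, 0% of all sets passed with the block, with 26 of all sets and 4 members at an unadjusted p under 0.05 in limma. The F test passed 18.3% of all sets and 7 members (17.5%): R290, R219, R33, R204, R224, R22 and R225. Beside the background, the members' share was close in the F test and for late minus early, and lower, at 2.5%, for 2 h minus 0.5 h.

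The score repeated only in part between libraries. Computed within each library number, it was below 0 in both for 37 of the 40 members (92.5%), against 37.5% of all sets, a share that the choice itself raises. Exceptions were R44, positive in library 1, and R274 and N8, positive in library 2. Among the 40 lowest of each library alone were 26 members for library 1 and 26 for library 2, and 12 were in both: R224, R290, R219, R111, R204, R64, R298, R292, R272, R270, R262 and R251. Of these, R272 had arrays of 1 library far apart, with 10.98 and 7.18 on the first and second arrays of library 1 at 0 h. Its first array was the higher in every library, and it stayed a member in 18 of 23 settings. The median SD between the arrays of a library was 0.18 in members. In 18 members the 0 h libraries differed by more than the score. The median SD of the 0 h libraries was 0.27 in members and 0.14 in all sets, while the median SD at treated times was 0.15 and 0.16.

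In signal, the median log2 level at 0 h was 9.08 in members and 8.25 over all sets. The 0 h level is part of the score that chose the members, and levels of different probes depend on the probe as well as the RNA, so these values are a description of spot brightness. The raw 0 h mean was above 10000 in 9 members (22.5%, against 11.6% of all sets): R290, R204, R44, R225, R32, R33, R26, R22 and R35. It was at most 200 in 8 members (20%, against 46.4%): R254, R103, R105, R286, R267, R222, N8 and R238. For those 8, values near the constant of 50 added before the log limit how far a level can fall.

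By code, 25 of the 99 sets numbered above R200 were members (25.3%), against 14 of 111 up to R200 (12.6%) and 1 of 14 with N codes (7.14%). The median score was -0.14 for all codes above R200 and 0.04 for those up to R200. All 99 sets above R200 lie in rows 8 to 14 of their sub-grids, so code and place on the array cannot be told apart. The 4 sub-grids of 56 sets each held 14, 12, 10 and 4 members. With each score taken relative to the median of its code class, 30 of the 40 stayed among the lowest 40. The files give R105 at a pair of places, 1 a member at -0.31 and the other at 0.07, rank 157 of 224, and whether they hold 1 probe is not known here.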

How the data were processed

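The deposited scanner files hold spot intensity on a linear scale, not background subtracted per the file headers, and the authors' deposited table gives the same intensities less local background (largest difference 9e-06 from that subtraction). Other upstream steps were not given in the sources used here. Intensities of the 896 spots were taken as log2(intensity + 50) and quantile normalized over 24 arrays; the 4 spots of a set, the arrays of a library and the libraries of a time were then averaged. The 40 members, their rule and the tests were chosen with earlier results of these data known.

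limma 3.58.1 in R 4.3.3 fitted 12 libraries with time as a factor (6 residual degrees of freedom), two-sided, adjusted by Benjamini-Hochberg over 224 sets at 0.05, and was tested on simulated data. Only contrasts among treated times were tested. Library numbers pair the samples by the data (library differences correlated in all 15 pairs of times, 0.49 to 0.77), while the labels do not say what they share, so a fit with the number as a block (5 degrees of freedom) is given beside the other where it changed a call.

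Values in every library were given for the 8 lowest scores, members with spots at 65535, the 3 largest and 3 smallest recoveries (members at 0% taken by rank) and members called; ranks 39 to 42 are given by score. R33 was added after its values were seen. Planned lists of microRNA families could not be run, since no table here pairs codes with names. Alternatives covered the background correction, constant, scaling, spot average, scanner marks, single or all hybridizations (statmod 1.5.0, library as a random block, correlation 0.30), brighter sets, the deposited table, and leaving out each library in turn.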

Additional observations from a re-analysis of the deposited data

Results flagged for a closer look

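Each set named by the rule, with R33 and with R58 and R283 just outside the choice, was searched, time by time, for 1 of its 4 arrays far from the other 3. Of 114 such groups, 3 had one, where chance alone at 1 in 20 would give 5.7. All 3 were in R238, the last set inside the choice and among the dimmest members. At 0 h, library 1 read 8.11 on its second array, where the other arrays read 7.05 to 7.18. At 2 h, library 1 read 7.25 on its second array, against 7.03 to 7.06. At 6 h, library 1 read 6.94 on its first array, against 7.03 on the others. The 0 h array enters the score of R238, which was -0.47 in library 1 and -0.02 in library 2. Members not named by the rule were not searched, and some of them also stood high on that array. R274 read 9.04 there, against 6.98 to 7.62 on the other 0 h arrays, and R67 read 9.32, against 7.65 to 8.09. R298 read 9.20, against 8.25 to 8.57, and R254 read 8.23, against 7.32 to 7.62. N8 read 8.44, against 6.83 to 6.98, and R103 read 8.14, against 7.32 to 7.46. All of these and R238 lie in the sub-grid that held 14 members, as does R262. Other members, such as R262, R272 and R255, read lowest on that array.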

How the results depend on the processing

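Which sets are the lowest 40 depends on the scaling, the hybridizations used and the 0 h libraries. Of the 40, 26 remained with no normalization, 26 with median scaling and 23 with the first hybridizations only; leaving out 1 library left 21 to 38, the 21 without library 1 of 0 h and 26 without its library 2. The other settings kept 30 to 40, and R224, R290, R111, R204 and R64 were kept in all 23. With no normalization the median score of all sets was 0.21 and 31 members were below 0, all 40 being below that median. Leaving out 1 library, the score of R219 ran from -1.40 to 0.0198, the latter without library 2 of 0 h, and that of R253 from -1 to 0.0396, the latter without library 1 of 0 h. In the tests without the replicate block, sets called for late minus early (2) became 7 with median scaling, 0 with cyclic loess, 0 with first hybridizations, 10 with all 24 arrays, 1 with treated libraries only and 27 with the block, and 1 to 2 when 1 library was left out. Members called became 1 with the constant 200, 1 with median scaling, 2 with all 24 arrays and 6 with the block. For 2 h minus 0.5 h, sets called (1) became 0 with no normalization, cyclic loess or the brighter sets only, 3 with median scaling, 2 with second hybridizations, 7 with all 24 arrays, 20 with the block (1 member), and 0 to 4 when 1 library was left out. For 48 h minus 24 h they were 0 to 1 when 1 library was left out. For the F test (2 sets) they were 1 with normexp, the constants 16 and 200, median scaling, the median of spots, the brighter sets or first hybridizations, 0 with no normalization, cyclic loess or second hybridizations, 21 with all 24 arrays (2 members), 41 with the block (7 members), and 0 to 2 when 1 library was left out. With the replicate block, members called for 2 h minus 0.5 h were 3 with no normalization, 8 with median scaling, 2 with cyclic loess, 0 with either hybridization alone and 0 to 2 when 1 library was left out. With the block, 1 member was called for 48 h minus 24 h with median scaling, and by the F test 13 with median scaling, 4 with first hybridizations and 3 to 8 when 1 library was left out. For late minus early, leaving out 1 library gave 3 to 6, the 3 without library 2 of 24 h. Counts over all sets are not given beside these member counts with the block, so they are not read as a result about the members. The causes of these changes were not tested. Combinations with the block and the class-median setting were added after the data were seen.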
